A study of Homo sapiens with 8 samples.

Results

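The replication-dependent histone genes stand in clusters, the largest on chromosome 6 (HIST1) and smaller ones on chromosome 1 (HIST2 and HIST3). mTOR chromatin immunoprecipitation followed by sequencing (ChIP-seq) was examined here at these genes. The peaks described are those of the 4 deposited annotated peak lists whose nearest gene is named HIST1H, HIST2H or HIST3H, whose distance to the transcription start site (TSS) is at most 10 kb in either direction, and which lie on chromosome 1 or 6. They number 75 of the 125713 peaks on chromosomes 1 to 22, X and Y.

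The cells were LNCaP, an established human prostate cancer line that depends on androgen, and each group is 1 library. All cells were kept for 48 h in RPMI medium with 2% charcoal-stripped serum, which is poor in steroids, and this deprivation is shared by the controls. The 4 groups were an empty short-hairpin vector (shEV) with the vehicle ethanol (EtOH, 0.1%) for 24 h, shEV with 10 nM of the synthetic androgen R1881 for 24 h, a hairpin against FoxA1 (shFoxA1) with EtOH, and shFoxA1 with R1881. FoxA1 is a pioneer factor of prostate luminal chromatin. The labels give neither the hairpin sequence nor whether the lines are clones, and these files do not measure how far FoxA1 was reduced. With no replicate of any group, no difference below carries a test, and intervals cover counting error only.

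Clustered histone genes encode the linker histone H1 and the core histones H2A, H2B, H3 and H4. They are transcribed mainly while DNA is replicated, and their messages end in a stem-loop that is bound by SLBP instead of a poly(A) tail. Transcription and 3′ processing take place in the histone locus body, organised by NPAT. Many H2A and H2B genes are arranged head to head and share a short divergent promoter. mTOR is a kinase of nutrient and growth-factor signalling, which is mainly cytoplasmic and has also been found in nuclei.

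The labelling of the genes was checked first. All 28 gene names in these peaks matched RefSeq (GRCh38.p14) by their gene identifiers; 26 are protein-coding and 2, HIST1H2APS1 and HIST2H2BB, are transcribed pseudogenes. RefSeq holds 87 such genes, 70 of them coding and 17 pseudogenes, so 44 coding genes had no peak under the rule. A peak is given to the gene with the nearest start, so that in a crowded cluster the same place can carry different names in different lists.

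The promoters of 5 genes show the range of what was seen. Each sequence is the 250 bases upstream of the RefSeq start (GRCh38.p14), 5′ to 3′ on the strand of the gene. Capitals mark matches on either strand to the CCAAT box, to the TATA box spelled TATAAA, or to the octamer bound by POU2F1, spelled ATTTGCAT. The first, of HIST1H2AB (chr6:26033619-26033868, minus strand), overlapped a peak in all 4 lists and holds CCAAT boxes, an octamer and a TATA box.
HIST1H2AB: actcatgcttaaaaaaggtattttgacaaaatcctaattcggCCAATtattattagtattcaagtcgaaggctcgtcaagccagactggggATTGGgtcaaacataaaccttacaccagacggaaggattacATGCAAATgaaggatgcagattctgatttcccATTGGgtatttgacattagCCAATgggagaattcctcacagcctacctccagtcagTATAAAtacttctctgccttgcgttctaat
HIST1H2AE (chr6:26216671-26216920, plus strand) shares its divergent promoter with HIST1H2BG and overlapped a peak in both shFoxA1 lists and in neither shEV list.
HIST1H2AE: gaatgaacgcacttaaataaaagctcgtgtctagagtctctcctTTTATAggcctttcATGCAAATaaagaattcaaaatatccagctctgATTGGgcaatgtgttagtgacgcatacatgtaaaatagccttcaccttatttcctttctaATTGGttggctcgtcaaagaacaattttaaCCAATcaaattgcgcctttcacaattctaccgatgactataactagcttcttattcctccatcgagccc
HIST1H2AC (chr6:26123922-26124171, plus strand), divergent from HIST1H2BC, overlapped a peak in the shFoxA1 R1881 list alone.
HIST1H2AC: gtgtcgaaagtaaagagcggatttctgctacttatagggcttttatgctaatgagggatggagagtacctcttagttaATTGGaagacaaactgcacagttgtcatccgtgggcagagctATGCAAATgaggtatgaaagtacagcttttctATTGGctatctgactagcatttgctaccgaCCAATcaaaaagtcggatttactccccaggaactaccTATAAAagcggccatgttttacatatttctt
The last 2 belong to near-identical H4 genes. HIST1H4J (chr6:27823842-27824091, plus strand) overlapped a peak in all 4 lists and HIST1H4K (chr6:27831561-27831810, minus strand) in none.
HIST1H4J: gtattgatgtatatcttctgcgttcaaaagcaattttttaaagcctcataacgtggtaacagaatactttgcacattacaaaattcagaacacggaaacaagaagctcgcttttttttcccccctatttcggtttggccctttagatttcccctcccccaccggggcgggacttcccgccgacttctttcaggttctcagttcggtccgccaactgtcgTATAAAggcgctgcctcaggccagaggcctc
HIST1H4K: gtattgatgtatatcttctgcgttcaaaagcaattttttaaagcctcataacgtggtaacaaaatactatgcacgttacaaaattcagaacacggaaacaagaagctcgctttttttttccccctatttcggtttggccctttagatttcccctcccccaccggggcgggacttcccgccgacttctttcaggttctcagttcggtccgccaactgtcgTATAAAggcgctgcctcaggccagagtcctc

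The number of histone gene peaks followed the length of the lists. The EtOH lists held 13 with shEV and 21 with shFoxA1, and the R1881 lists 13 and 28. The order shEV EtOH, shEV R1881, shFoxA1 EtOH, shFoxA1 R1881 is used wherever 4 values follow each other. The counts of 13, 13, 21 and 28 came from lists of 24948, 26074, 35121 and 39570 peaks. As a share of the list this was 0.0521%, 0.0499%, 0.0598% and 0.0708%. With lists of like length the higher count with shFoxA1 was kept in EtOH and not in R1881. The cut used for this reached down to scores of 34, 34, 58 and 57, below the median score of each list (58, 58, 66 and 65). It kept a larger part of the shEV lists than of the shFoxA1 lists, and it does not single out the strongest peaks. Cut to their 20000 highest-scoring peaks, the lists held 6, 10, 8 and 8, where tied scores were taken in chromosome order; with every peak tied at the lowest score kept they held 7, 12, 10 and 12. Depth is unknown, so a longer list and more bound sites cannot be told apart.

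The share of coding histone genes with an assigned peak within 10 kb was the lower one in each list, by a margin beyond counting error in 1 of the 4. In shEV EtOH 11 of 70 did (15.7%, Wilson 95% interval 9.01 to 26.0), against 23.4% of the 20037 coding genes of RefSeq. In shEV R1881 the count was again 11 (15.7%, against 23.4%). In shFoxA1 EtOH it was 17 (24.3%, 15.8 to 35.5, against 36.8%) and in shFoxA1 R1881 19 (27.1%, 18.1 to 38.5, against 38%). The interval lay below the background share in shFoxA1 EtOH and included the background in both shEV lists and in shFoxA1 R1881. Each peak counts for a single gene here, so neighbouring histone genes cannot share one.

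By family, peaks named 2 of the 6 H1 genes, 10 of the 17 coding H2A genes, 6 of the 18 H2B genes, 3 of the 15 H3 genes and 5 of the 14 H4 genes in at least 1 list. Coding H2B genes named by a peak numbered 0, 2, 4 and 5. The H3 genes stayed level, at 3, 3, 2 and 3. These counts depend on which gene a shared peak is named for. By position, in the promoter windows described below, 2, 2, 6 and 10 H2B promoters and 2, 2, 1 and 1 H3 promoters overlapped a peak. Over the same lists the share of all coding genes with a peak went from 23.4% to 38%. Of all 75 peaks, 56 lay in HIST1, 15 at HIST2 genes and 4 in HIST3.

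Most histone gene peaks lay at the start of the gene. The median distance was 247 bp without regard to side, and 52 of 75 lay within 1 kb. The rule itself limits the distance to 10 kb, and each peak is measured to the nearest start in a crowded cluster. No like share for the peaks of other genes within 10 kb is given here, so these distances are a description only. The deposited annotation put 42 in the promoter class (promoter-TSS), 17 between genes, 6 in exons, 6 at transcription ends, 3 in exons of non-coding transcripts and 1 in an intron. The promoter class took 7 of 13 in shEV EtOH (53.8%), 6 of 13 in shEV R1881 (46.2%), 13 of 21 in shFoxA1 EtOH (61.9%) and 16 of 28 in shFoxA1 R1881 (57.1%). Of all peaks it took 9.80%, 8.90%, 12.6% and 11.2%, a background that is not restricted to peaks near a gene start. In all, 17 of the 75 lay in a repeat or a tRNA element, where short reads can map to several copies.

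The median score of histone gene peaks was low for each list, beyond counting error in the R1881 lists alone. The deposited score was read only within its own list, as the percentage of peaks scoring lower, with ties split. The median percentiles were 19.8, 28.9, 36.6 and 37.4. Their 95% intervals were 11.1 to 69.1, 19.3 to 46.2, 18.6 to 58.1 and 28.4 to 45.6. Those of both EtOH lists included the middle of the list. Promoter-class peaks of the whole list had medians of 38.4, 38.0, 44.8 and 45.6, and the histone gene peaks of that class 11.1, 37.5, 27.7 and 41.5. Within the class the gap was wider in the EtOH lists than in the R1881 lists, without a test. The shEV R1881 median rests on 6 peaks, 1 of them the wide HIST1H4H peak at percentile 96.2. In the other lists the strong HIST1H4H peak was classed as between genes, so the small gap in shEV R1881 depends on that annotation. Only 3 of 13, 2 of 13, 8 of 21 and 7 of 28 scored above the median of their list. In shEV EtOH these were peaks of HIST1H4H, HIST1H2APS1 and HIST2H2AB, and in shEV R1881 peaks of HIST1H4H and HIST1H4J, as the dot plot of genes by list shows.

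**Figure D1:**
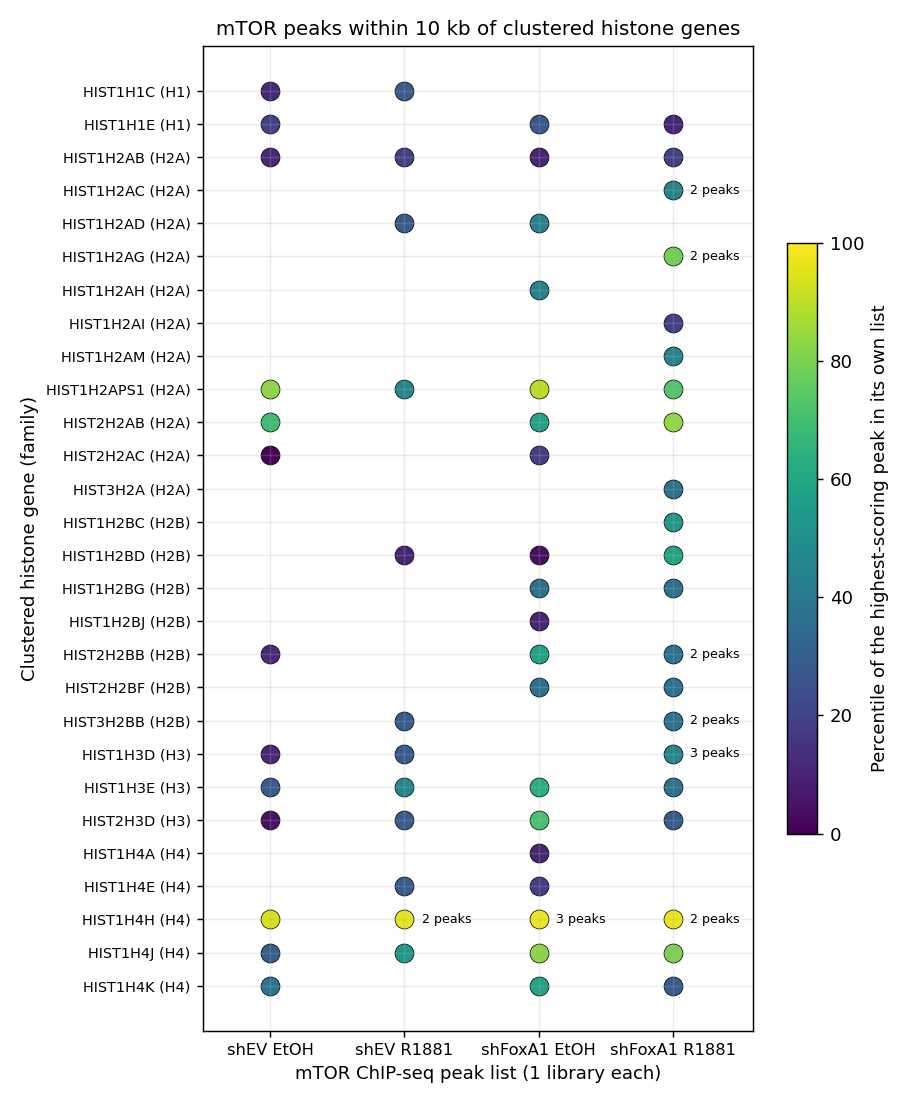
Each row is a clustered histone gene with at least 1 peak within 10 kb, grouped by family, and each column is the peak list of 1 library. A dot marks a peak and its colour gives the percentile of the highest-scoring peak of the gene within that list; HIST1H4H is above percentile 94 in all 4 columns, and most other dots are below the middle of the scale.

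Of the linker histone genes, HIST1H1E (H1-4) and HIST1H1C (H1-2) had peaks; both encode somatic H1 variants. HIST1H1E had a peak at its start in both shFoxA1 lists, at chr6:26156381-26156811 in EtOH (exon, 265 bp from the TSS, score 42, percentile 27.7) and at chr6:26156219-26156582 in R1881 (promoter, 69 bp, score 27, percentile 10.6). In shEV EtOH a separate peak lay at the end of the gene (743 bp, score 34, percentile 19.8), and shEV R1881 had none. HIST1H1C was the reverse in presence, with a peak in both shEV lists and in neither shFoxA1 list. Its peaks lay far from the gene, in an AluSx element at -8473 bp in EtOH (chr6:26064701-26065187, score 27, percentile 11.1) and at -8345 bp in R1881 (chr6:26064660-26064973, score 42, percentile 28.9).

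Among the H2A genes, which encode core histones paired with H2B in the nucleosome, HIST1H2AB (H2AC4) had a peak in every list. It covered the start of the gene, at chr6:26033456-26033897 in shEV EtOH (score 27), chr6:26033268-26033658 in shEV R1881 (34), chr6:26033359-26033821 in shFoxA1 EtOH (27) and chr6:26033317-26034010 in shFoxA1 R1881 (34). The percentiles were 11.1, 19.3, 10.1 and 19.2, so this promoter was called in all 4 libraries from weak peaks. The pseudogene HIST1H2APS1 also had a peak in every list, about 5 kb from its start in an LTR8A element of an endogenous retrovirus. Its peak in shEV EtOH (chr6:25737257-25737675) had a score of 158, and those in shEV R1881, shFoxA1 EtOH and shFoxA1 R1881 had scores of 58, 235 and 102. These were at percentiles 83.6, 46.2, 89.8 and 72.7, among the highest of the 75 peaks in 3 of the 4 lists.

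At HIST2 the H2A genes HIST2H2AB (H2AC21) and HIST2H2AC (H2AC20) had peaks in 3 of the 4 lists. HIST2H2AB had a score of 95 in shEV EtOH (chr1:149887608-149888636, percentile 69.1), 75 in shFoxA1 EtOH (chr1:149887638-149888704, percentile 58.1) and 153 in shFoxA1 R1881 (chr1:149886344-149888587, percentile 83.9), and no peak in shEV R1881. The last of these was the widest of the 75, at 2244 bp, and reached across HIST2H2AC as well. HIST2H2AC had peaks of its own in shEV EtOH (score 14, percentile 0.804) and shFoxA1 EtOH (score 34). The shEV R1881 list was thus the exception at this locus.

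The remaining H2A genes were found in 1 or 2 lists. HIST1H2AD (H2AC7) was named in shEV R1881, by a promoter peak with a score of 42, and in shFoxA1 EtOH, by a peak at a transcription end with a score of 58. HIST1H2AH (H2AC12) was named in shFoxA1 EtOH (score 58). The other 5 were named by the shFoxA1 R1881 list alone: HIST1H2AG (H2AC11), HIST1H2AC (H2AC6), HIST1H2AI (H2AC13), HIST1H2AM (H2AC17) and HIST3H2A (H2AC25). Of these the promoter peak of HIST1H2AG scored 122, at percentile 78.3 (chr6:27132589-27133271), and the others ranged from 34 to 57. HIST1H2AC had 2 peaks there, at 29 and 1917 bp, both with a score of 57, and HIST1H2AG had a further peak in an AluY element (score 34).

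Of the H2B genes, HIST1H2BG (H2BC8) and HIST2H2BF (H2BC18) had a peak in both shFoxA1 lists and in neither shEV list. HIST1H2BG had a score of 49 in both, at chr6:26216437-26216923 in EtOH and chr6:26216136-26217420 in R1881, over the promoter it shares with HIST1H2AE. HIST2H2BF likewise had a score of 49 in both, at chr1:149811950-149812910 and chr1:149811836-149812581. The divergent promoter of HIST1H2BJ (H2BC11) and HIST1H2AG had the same pattern. Its peak was assigned to HIST1H2BJ in shFoxA1 EtOH (chr6:27132119-27133036, score 27, percentile 10.1) and to HIST1H2AG in shFoxA1 R1881. HIST1H1E completes the 4 regions of this pattern.

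HIST1H2BD (H2BC5) lacked a peak in shEV EtOH and had promoter peaks in shEV R1881 (score 27), shFoxA1 EtOH (21) and shFoxA1 R1881 (74). HIST1H2BC (H2BC4) had a promoter peak in shFoxA1 R1881 alone, with a score of 65. HIST3H2BB (H2BC26) was the gene with a peak under R1881 with either hairpin and under EtOH with neither. These peaks lay at chr1:228458796-228459102 in shEV R1881 (842 bp from the TSS, score 42, percentile 28.9) and at chr1:228458935-228459388 in shFoxA1 R1881 (1054 bp, score 49, percentile 37.4). A separate promoter peak of HIST3H2BB was present in shFoxA1 R1881 (score 27). The pseudogene HIST2H2BB had a peak in an exon in shEV EtOH (27), shFoxA1 EtOH (75) and shFoxA1 R1881 (49), and another in shFoxA1 R1881 in an MLT1J repeat (41).

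Of the H3 genes, HIST1H3E (H3C6) and HIST2H3D (H3C13) had a peak in all 4 lists. HIST1H3E was covered at its start by peaks at chr6:26224944-26225354 in shEV EtOH (score 42), chr6:26224933-26225378 in shEV R1881 (58), chr6:26224873-26225445 in shFoxA1 EtOH (84) and chr6:26224840-26225342 in shFoxA1 R1881 (49). The percentiles were 29.2, 46.2, 63.1 and 37.4. HIST2H3D had peaks at chr1:149813386-149813814 (score 20), chr1:149813255-149813876 (42), chr1:149813276-149813865 (103) and chr1:149813106-149813623 (41) in the same order, at percentiles 4.37, 28.9, 71.0 and 28.4. In each case the highest percentile was in shFoxA1 EtOH.

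The third H3 gene, HIST1H3D (H3C4), stands in a locus with HIST1H2AD and HIST1H2BF. Its promoter had a peak in shEV EtOH (score 27), shEV R1881 (42, assigned to HIST1H2AD) and shFoxA1 R1881 (57), and none in shFoxA1 EtOH. Downstream, over the end of the longer HIST1H2AD transcript, there were peaks in shEV R1881 (42), shFoxA1 EtOH (58) and shFoxA1 R1881 (14 and 27). The promoter and the downstream region therefore differed in which list lacked a peak.

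Histone H4 genes had the highest-scoring of the 75 peaks. At HIST1H4H (H4C8) a peak lay about 1 kb upstream of the start, annotated in 3 lists to an initiator methionine tRNA element (tRNA-Met-i). It was at chr6:26286326-26286806 in shEV EtOH (score 340, percentile 94.1), chr6:26286315-26286792 in shFoxA1 EtOH (614, percentile 97.4) and chr6:26286253-26286848 in shFoxA1 R1881 (551, percentile 97.2). In shEV R1881 a wider peak of 1056 bp ran from there towards the gene (chr6:26285744-26286799, score 434, percentile 96.2) and was annotated to the HIST1H4H promoter. A separate promoter peak of HIST1H4H was called in shFoxA1 EtOH alone (-247 bp, score 42). Further upstream, between -2713 and -2951 bp, peaks in LTR3 and HERVK3 repeats were present in shEV R1881 (34), shFoxA1 EtOH (49) and shFoxA1 R1881 (74).

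HIST1H4J (H4C11) had a promoter peak in all 4 lists. It lay at chr6:27823877-27824195 in shEV EtOH (score 42), chr6:27823804-27824195 in shEV R1881 (67), chr6:27823781-27824264 in shFoxA1 EtOH (155) and chr6:27823834-27824275 in shFoxA1 R1881 (132). The percentiles were 29.2, 53.5, 82.6 and 80.4, equal to or above those of HIST1H2AB, HIST1H3E and HIST2H3D in each list. Its neighbour HIST1H4K (H4C12) encodes the same protein, and 295 of the 300 bases around the 2 starts are identical (98.3%). The HIST1H4K window overlapped no peak in any list. The peaks assigned to HIST1H4K lay 3336 to 3619 bp away in an SVA_D retroposon, in shEV EtOH (score 50), shFoxA1 EtOH (75) and shFoxA1 R1881 (41). Reads from such near-identical promoters can be placed at either copy, and their placement is not described in the labels, so the assignment of this peak to HIST1H4J is uncertain. The promoters of HIST2H4A and HIST2H4B are identical over the window, and neither overlapped a peak.

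HIST1H4A (H4C1) had a promoter peak in shFoxA1 EtOH alone (score 27). HIST1H4E (H4C5) had a promoter peak in shEV R1881 (chr6:26203755-26204103, score 42) and in shFoxA1 EtOH (chr6:26204027-26204601, score 34), and none in the other 2 lists.

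Peaks at the far edge of the 10 kb rule were few. The outermost inside it were those of HIST1H1C and the HIST2H2BB peak at 6721 bp. The nearest outside were 2 peaks assigned to HIST1H4H in an LTR3 element, at -10443 bp in shFoxA1 R1881 (score 83) and -10521 bp in shEV R1881 (score 42). Next came a peak at a glutamine tRNA about 12 kb from HIST1H2BL, present in all 4 lists with scores of 380, 263, 541 and 760.

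Merged over the lists, the 75 peaks fell into 32 regions. Of these 6 had a peak in all 4 lists (18.8%), namely those of HIST2H3D, HIST1H2APS1, HIST1H2AB, HIST1H3E, HIST1H4H and HIST1H4J. The same share of all 61118 regions was 19.0%, and of the 6619 regions holding a promoter-class peak it was 24.1%. A further 7 regions had a peak in 3 lists, 7 in 2 lists and 12 in 1 list. By list the 12 were 1, 0, 2 and 9 of the 32, where 6.53%, 7.23%, 14.7% and 19.7% of all regions were confined to that list. The pattern of both shFoxA1 lists and no shEV list was that of 4 regions (12.5%), against 6.91% of all regions and 14.3% of promoter regions. Those in shFoxA1 R1881 only numbered 9 (28.1%), against 19.7% and 14.6%. A peak in a shFoxA1 list was found in 30 of the 32 regions, the exceptions being HIST1H1C and the end of HIST1H1E. This share of 93.8% lay near that of promoter regions, 95%, and all regions had 85.3%.

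Promoters were also counted by position, whatever gene a peak was assigned to. RefSeq promoter windows, from 250 bases before to 50 after the start, were matched for 65 of the 70 coding histone genes; H4C1, H4C3, H2AC12, H3C11 and H3C12 were not matched. In shEV EtOH 9 of 65 overlapped a peak (13.8%, against 11.5% of 15843 coding promoters) and in shEV R1881 8 (12.3%, against 10.2%). In shFoxA1 EtOH 15 did (23.1%, against 23.3%) and in shFoxA1 R1881 22 (33.8%, Wilson 95% interval 23.5 to 46.0, against 22.3%). Histone promoters were thus close to other promoters in 3 lists and above them in shFoxA1 R1881. With each list cut to about 20000 peaks, the excess in shFoxA1 R1881 rested on ties. The peaks above the cut numbered 18864, 19794, 18002 and 19997, of lists of 24948, 26074, 35121 and 39570. The cut thus goes deep into every list, and deeper into the shEV lists. Among peaks scoring above the 20000th of their list, 2, 6, 3 and 7 histone promoters overlapped one (3.08%, 9.23%, 4.62% and 10.8%, against 8.37%, 7.13%, 11.8% and 11.2% of coding promoters). With the peaks tied at that score included, 2, 7, 4 and 14 did (3.08%, 10.8%, 6.15% and 21.5%, against 9.64%, 8.34%, 13.8% and 13.1%). Divergent genes share a peak, so the promoters are not independent counts.

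**Figure D2:**
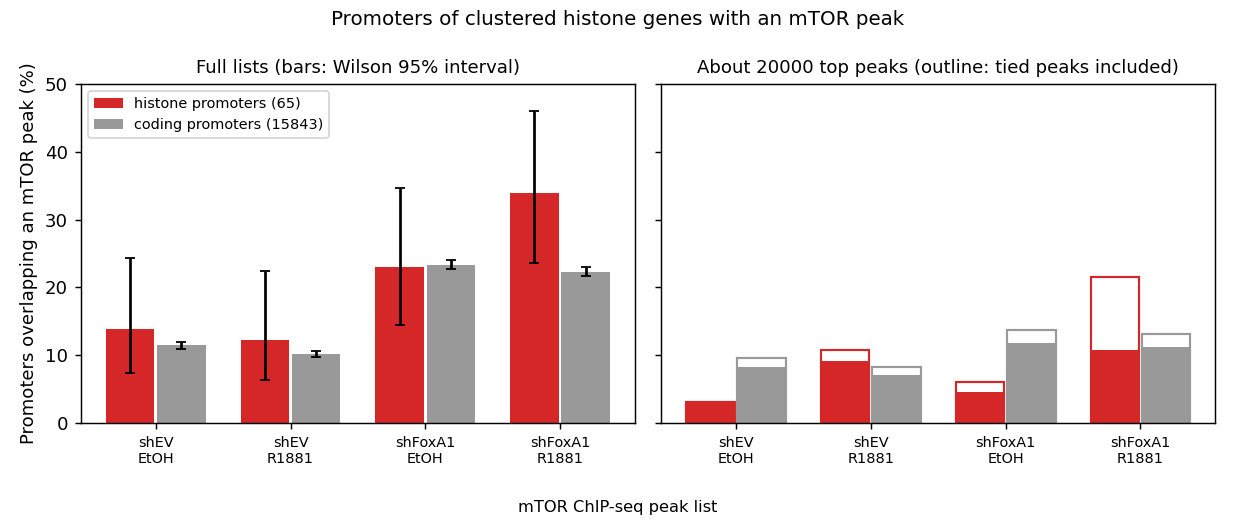
Percentage of promoter windows overlapping an mTOR peak in each list, for 65 clustered histone genes and 15843 coding genes. The left panel uses the full lists with Wilson 95% intervals; in the right panel filled bars use peaks scoring above the 20000th of the list and outlines add the peaks tied with it. In the left panel the histone bar stands above the coding bar most clearly in shFoxA1 R1881, at 33.8% against 22.3%.

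The promoters with a peak were mostly those of H2A and H2B genes. In at least 1 list 26 of 65 histone promoters overlapped a peak (40%, Wilson 95% interval 29.0 to 52.1, against 31.9% of coding promoters). By family, 9 of 16 H2A and 11 of 18 H2B promoters overlapped a peak, against 1 of 6 H1, 2 of 13 H3 and 3 of 12 H4 promoters. The other 39 overlapped none, and only HIST1H2AB and HIST1H4J did in all 4 lists (3.08%, against 5.52%). In 5 cases the peak was in both shFoxA1 lists and no shEV list (7.69%, 3.33 to 16.8, against 4.99%), and in 8 it was in shFoxA1 R1881 only (12.3%, 6.37 to 22.5, against 5.31%). In none was it confined to the shEV lists, against 1.69% of coding promoters. HIST1H3E counts among the 39 without a peak, since its RefSeq start lies at another position than the start its peaks cover.

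The 8 promoters found in shFoxA1 R1881 only were at divergent H2A and H2B genes, apart from HIST1H1E. The HIST1H1E window ends at 26156378, and the shFoxA1 EtOH peak of this gene starts just beyond it, at 26156381. Its place among the 8 thus depends on the edge of the window. Of 11 divergent loci, 2, 1, 3 and 8 had a peak. The loci of that last list were HIST2H2BE with HIST2H2AC, HIST3H2A with HIST3H2BB, HIST1H2BC with HIST1H2AC, HIST1H3D with HIST1H2AD and HIST1H2BF, HIST1H2BG with HIST1H2AE, HIST1H2BJ with HIST1H2AG, HIST1H2BL with HIST1H2AI, and HIST1H2AM with HIST1H2BO. At HIST3 the peak (chr1:228458146-228458608) met only the downstream end of the HIST3H2BB window, which ends at 228458152. The HIST3H2A window overlapped no peak. Of the 42 promoters without a divergent partner, 4, 5, 9 and 6 had a peak in the same order of lists. Among all coding promoters 11.5%, 10.2%, 23.3% and 22.3% did. A locus joins the windows of 2 or 3 genes and is thus a wider target than 1 promoter. No share over divergent coding promoters is given here, so the locus counts have no matched background. Partners were sought among the 65 matched windows only. HIST1H2BK, with a peak in shFoxA1 EtOH, thus counts among the 42, since its neighbour HIST1H2AH was not matched. The peak there is the one assigned to HIST1H2AH, at -76 bp from that start, so the count of divergent loci is incomplete. This split was made after the peaks had been seen and has no test.

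Histone promoters differed in composition from coding promoters at large. Their median GC content was 43.0%, against 62.7%, and it was 42.2% in the 26 with a peak and 46.0% in the 39 without. Coding promoters with a peak had 67.0%. Promoter-class histone peaks themselves had median GC contents of 51.3%, 50.9%, 51.4% and 54.0% in the 4 lists, against 63.9%, 62.7%, 64.0% and 62.7% for all promoter-class peaks.

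The motifs of histone transcription were searched on both strands in the 300-base windows. CCAAT was found in 56 of 65 histone promoters (86.2%, against 36.4% of all), TATAAA in 43 (66.2%, against 9.63%) and the octamer ATTTGCAT in 26 (40%, against 1.70%). The octamer was almost wholly a feature of H2A (11) and H2B (14) promoters, and it stood in 17 of the 26 promoters with a peak and in 9 of the 39 without. AAACACA, the H1 box, was in all 6 H1 promoters and in 9 of 65 (13.8%, against 4.24%). The E2F motif TTTCGCGC was in 12 (18.5%, against 0.814%), 8 of them in promoters with a peak, and TTTGGCGC in none (0.890% of all). Of forkhead cores, the kind of motif FoxA1 binds, TGTTTAC was in 2 (3.08%, against 2.61%) and TATTTAC in 7 (10.8%, against 1.99%), 6 of these 7 in promoters with a peak. The palindromic androgen response element in its exact consensus was in none of the windows, histone or other. A match is a description of these letters, and family, base composition and presence of a peak go together in this set. The windows of divergent genes largely overlap, so a single motif and a single peak can count for each gene of a locus. The counts with and without a peak are therefore not of independent sequences.

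For the androgen treatment, histone gene peaks came and went at about the rate of other peaks. A gained peak is one with no overlap of at least 1 bp in the comparison list, and a lost peak is the reverse; both describe thresholded lists. With shEV, 5 of the 13 peaks of the R1881 list were gained (38.5%, against 45% of all peaks and 38.1% of promoter-class peaks). They were at HIST3H2BB, HIST1H3D (downstream), HIST1H4E, HIST1H4H (LTR3) and HIST1H2BD. Of the 13 EtOH peaks 5 were lost (38.5%, against 42.6% and 42.1%), at HIST2H2AB, HIST2H2AC, HIST2H2BB, HIST1H4K and the end of HIST1H1E.

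With shFoxA1, 11 of the 28 peaks of the R1881 list were gained (39.3%, Wilson 95% interval 23.6 to 57.6, against 44.5% of all and 28.8% of promoter-class peaks). They were at HIST1H2BC, HIST1H2AC (2 peaks), HIST1H2AM, HIST1H3D, HIST3H2A, HIST3H2BB (2 peaks), HIST2H2BB, HIST1H2AG and HIST1H2AI. Lost were 4 of 21 (19.0%, 7.67 to 40.0, against 37.5% and 29.7%), at HIST1H2AH, HIST1H4H, HIST1H4E and HIST1H4A. Both intervals included the promoter-class share. The HIST3H2BB region was the single one gained with both hairpins, and none was lost with both.

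For the hairpin, gained peaks outnumbered lost ones at histone genes in both treatments, as they did over the whole lists. In EtOH 11 of the 21 shFoxA1 peaks had no overlap in shEV (52.4%, against 49.2% of all and 55.1% of promoter-class peaks). They were at HIST1H2AD (downstream), HIST1H2AH, HIST2H2BF, HIST1H2BG, HIST1H4H (2 peaks), HIST1H1E, HIST1H4E, HIST1H4A, HIST1H2BJ and HIST1H2BD. Lost in EtOH were 3 of 13 (23.1%, against 28% and 15%), at HIST1H1E, HIST1H1C and HIST1H3D.

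In R1881 18 of the 28 shFoxA1 peaks had no overlap in shEV (64.3%, 45.8 to 79.3, against 52.8% of all and 56.8% of promoter-class peaks). They were led by HIST2H2AB (score 153), HIST1H2AG (122) and HIST1H2BC (65). The others were at HIST1H2AC, HIST1H2AM, HIST1H2BG, HIST2H2BB, HIST2H2BF, HIST3H2A, HIST1H4K, HIST1H2AI, HIST1H1E, HIST3H2BB and HIST1H3D. Lost were 3 of 13 (23.1%, against 27.9% and 15.1%), at HIST1H1C, HIST1H3D (downstream) and HIST1H4E. No comparison of shares put the histone gene peaks outside counting error of promoter-class peaks, as the plot of gained and lost shares shows. With each list cut to its 20000 top-scoring peaks, the gains were 2 of 8 in EtOH and 5 of 8 in R1881. The losses were 0 of 6 and 7 of 10. No share of all peaks under this cut is given here, and it removes more of the shFoxA1 lists than of the shEV lists. These counts therefore do not describe a change particular to histone genes.

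**Figure D3:**
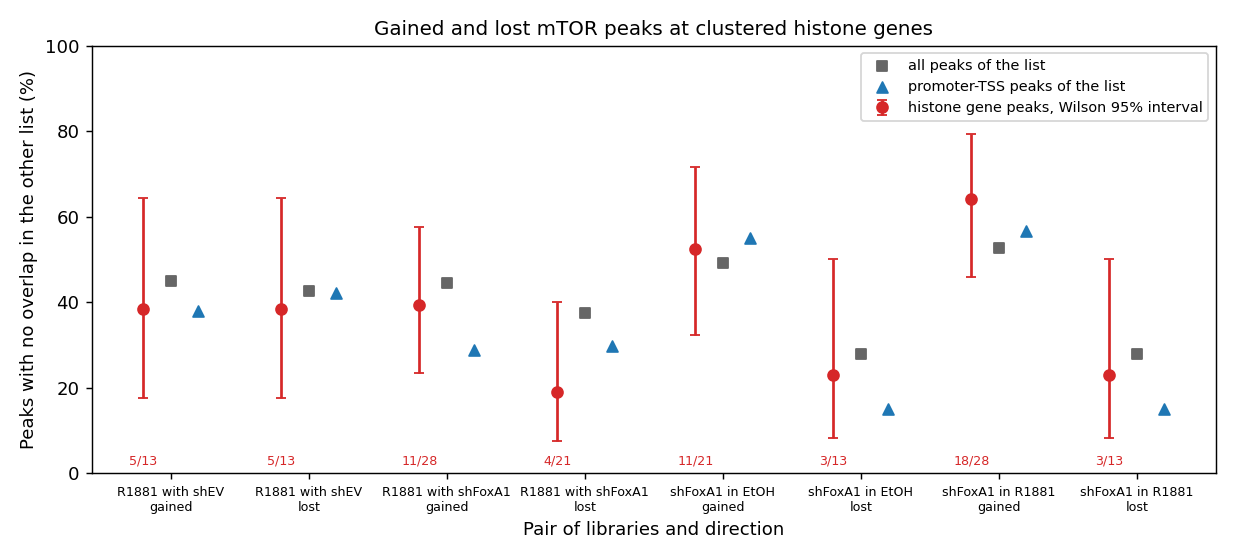
Percentage of peaks without an overlap in the other list, for each pair of libraries and direction; red circles are histone gene peaks with Wilson 95% intervals and their counts, grey squares all peaks and blue triangles promoter-class peaks. The histone intervals include the promoter-class value in all 8 columns, with the widest gap to all peaks at the 4 of 21 lost with R1881 in shFoxA1.

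The histone genes are a small part of the mTOR signal in the HIST1 cluster. The window from 10 kb before the first to 10 kb after the last HIST1 peak spans 2.18 Mb of chromosome 6 and also holds butyrophilin, zinc-finger and many tRNA genes. It contained 65, 80, 85 and 97 peaks in the 4 lists, of which 9, 11, 16 and 20 were histone gene peaks. The 50, 60, 63 and 70 peaks assigned to other genes had median percentiles of 90.5, 92.0, 90.5 and 95.6. Histone gene peaks in the same window had medians of 29.2, 28.9, 36.6 and 45.6. Of the peaks in the top 5% of their lists the window held 14, 24, 26 and 46, and of these 0, 1, 1 and 1 were histone gene peaks, all 3 at HIST1H4H. The map of the HIST1 cluster shows most histone gene peaks as low stems beside taller ones.

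**Figure D4:**
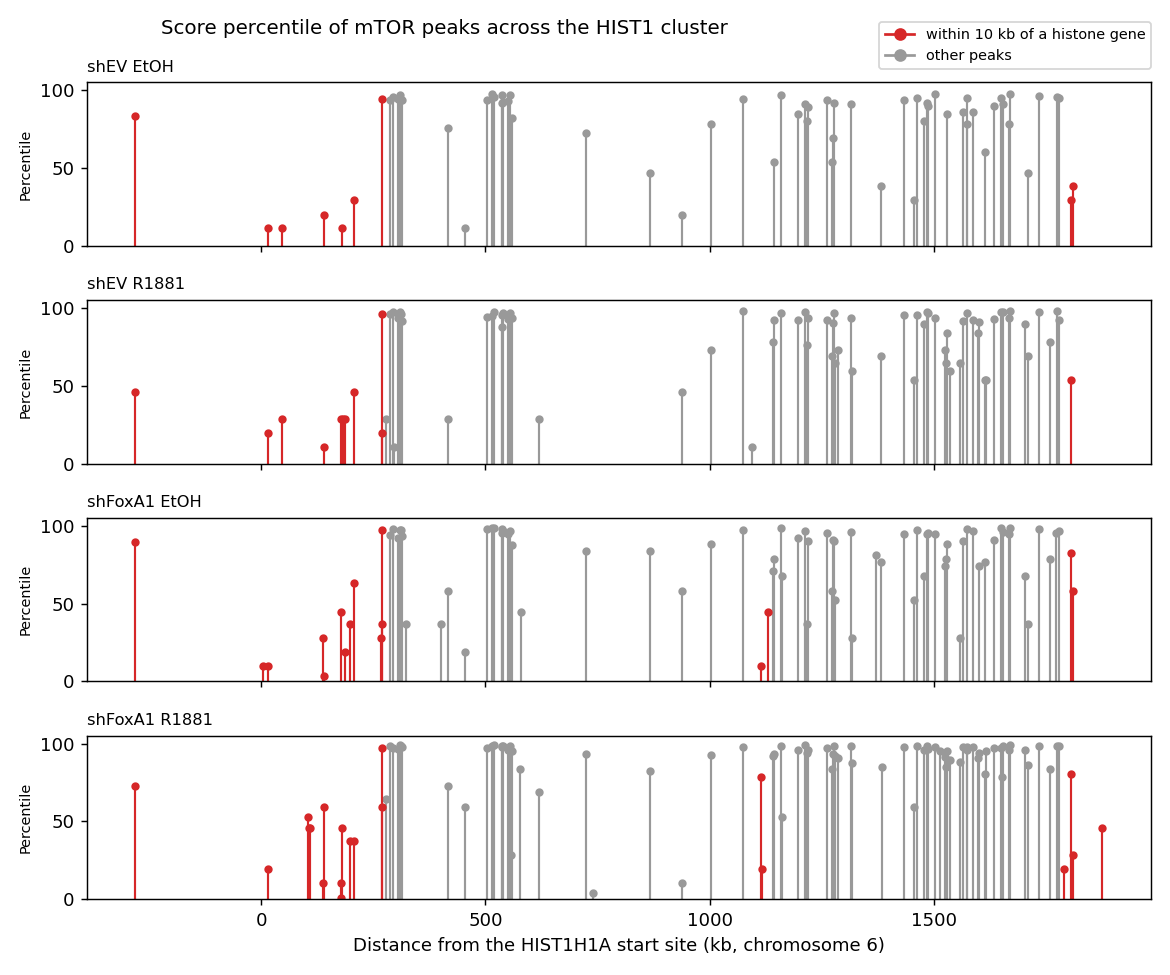
Peaks across the HIST1 cluster in each list, placed by distance in kb from the HIST1H1A start and drawn to the height of their score percentile within the list. Red stems are peaks within 10 kb of a histone gene and grey stems are the other peaks of the window; most grey stems reach near percentile 90 and most red ones stay below the middle.

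The window was rich in peaks annotated to tRNA elements. It held 19, 20, 23 and 24 of them, out of 58, 59, 58 and 66 in the whole lists, and 3, 5, 10 and 15 of these were in the top 5% of their list. In merged form it had 41 tRNA regions, 29 of them with a peak in all 4 lists, and 1 of the 41, that of HIST1H4H, held a histone gene peak. Of 19 non-histone genes named in the window, 16 had a peak in all 4 lists. They were BTN3A2, BTN3A3, GUSBP2, HCG11, HMGN4, LINC01012, LOC100131289, LOC100270746, LOC105374988, MIR3143, POM121L2, PRSS16, VN1R10P, ZNF184, ZNF322 and ZNF391. HMGN4, which encodes a nucleosome-binding protein, had top percentiles of 97.3, 97.7, 98.8 and 99.2. The HIST2 and HIST3 windows, drawn in the same way, held no peak assigned to another gene.

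Genes that serve histone production were looked at in the same way, within 10 kb. Of 17 genes of the histone locus body and histone mRNA processing, 4, 3, 6 and 5 had a peak in the 4 lists, shares of the same order as the 23.4% to 38% of coding genes. In every list there were peaks at SLBP, the stem-loop binding protein (scores 58, 27, 84 and 65), ZNF473, a component of the U7 processing complex (34, 95, 177 and 281), and POU2F1, the octamer-binding factor (593, 434, 600 and 729). NPAT had none in any list. CCNE1, cyclin E1, whose kinase phosphorylates NPAT, had a peak with the FoxA1 hairpin alone, in both treatments (42 and 34).

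Of 9 histone chaperone genes 1, 1, 4 and 2 had a peak, none of them in all lists, and DAXX, a chaperone of H3.3, had a peak in the 2 shFoxA1 lists alone (21 and 27). The 13 unclustered histone genes, most of which are expressed outside replication as well, had a peak at 4, 4, 8 and 9. MACROH2A1, MACROH2A2, H2AJ and H3-3B had a peak in all 4 lists, with top scores of 95, 50, 103 and 83 at MACROH2A1 and 125, 135, 188 and 221 at H2AJ. H1-10, H2AX and H2AZ2 had peaks in both shFoxA1 lists and neither shEV list, with scores of 20 to 49. The counts of both groups were higher in the shFoxA1 lists than in the shEV lists, as was the share of all coding genes (23.4%, 23.4%, 36.8% and 38%). The chaperones had fewer in shFoxA1 R1881, the longest list, than in shFoxA1 EtOH.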

How the data were processed

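The submitters' processing notes name MACS2, HOMER 4.11.1, BWA 0.7.12, deepTools 3.5.0, Picard 2.0.1 and Trimmomatic 0.36, and the build hg38. Which control and threshold the peak calling used, and whether duplicate reads were removed, was not given in the sources used here. Per the file headers each list is HOMER's annotation of the peaks of 1 library. The deposited score is the authors' value per peak, which no source used here defines, and it was used only within its own list. The GC fraction deposited for each peak was printed as a percentage. Annotation class, nearest gene and TSS distance were taken as deposited.

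From these lists, peaks on chromosomes 1 to 22, X and Y were used with Python 3.11.15 and pandas 2.3.3. Peaks were shared at an overlap of at least 1 bp, and the 4 lists were merged into regions. RefSeq starts and promoter sequences (GRCh38.p14) are of the same assembly as hg38: over 15882 peak and gene pairs within 1 kb, 73.2% of the starts implied by the files lay within 50 bp of the RefSeq start. No read totals were given, so depth is unknown. With 1 library per group there is no test; Wilson 95% intervals cover counting error only and treat peaks as independent. The overlap counts were tested on simulated lists. The 4 input libraries were not analysed here.

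Every histone gene with a peak is named, with positions for regions in all 4 lists or in exactly both lists of 1 hairpin or treatment, and otherwise for the highest percentiles; positions of HIST1H4E were added after its values were seen. Pathway and neighbouring genes are named if present in all 4 lists or changed alike in both pairs of a contrast. The members and gene lists were chosen with earlier results of these data known. Alternatives were the 20000 highest-scoring peaks, a 1 kb limit, other overlap rules, assignment by RefSeq position and ranking among promoter-class peaks; those for the promoter windows were added after the data were seen.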

Additional observations from a re-analysis of the deposited data

Results flagged for a closer look

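Peak presence in the merged HIST1H4E region went opposite ways with R1881 under the 2 hairpins. With shEV a peak was in the R1881 list (score 42, percentile 28.9, -716 bp from the TSS) and none in the EtOH list. With shFoxA1 a peak was in the EtOH list (score 34, percentile 18.6, -331 bp) and none in the R1881 list. The 2 peaks overlap only from 26204027 to 26204103, and the shEV R1881 peak does not reach the RefSeq promoter window, which begins at 26204360. This presence pattern was that of 1.79% of all 61118 regions and 1.60% of regions holding a promoter-class peak. Each state rests on 1 library and a low score, and the difference was not tested.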

How the results depend on the processing

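Of 76 values recomputed under an alternative, 24 moved: counts by more than 1.5 times, and median percentiles beyond the 95% interval of the median. The median percentile of shEV EtOH went from 19.8 to 11.1 with a limit of 1 kb, which is the lower bound of its wide interval (11.1 to 69.1), and was counted as unmoved. The 20000 highest-scoring peaks of each list, with ties at the lowest score in chromosome order, accounted for most. Histone gene peaks were then 6 (shEV EtOH), 8 (shFoxA1 EtOH) and 8 (shFoxA1 R1881), and genes named 6, 8 and 7. Regions in all 4 lists fell to 3 and those in both shFoxA1 lists only to 0. Gained peaks were 4 with R1881 in shFoxA1, 2 with shFoxA1 in EtOH and 5 with shFoxA1 in R1881. Lost peaks were 2 with R1881 in shEV, 0 with shFoxA1 in EtOH and 7 with shFoxA1 in R1881. No share of all peaks under the same cut is given beside these gains and losses. Promoter windows with a peak were 2 (shEV EtOH), 3 (shFoxA1 EtOH) and 7 (shFoxA1 R1881). With a limit of 1 kb, shFoxA1 R1881 had 18 peaks, gains were 3 with R1881 in shEV and 7 in shFoxA1, and 1 peak was lost with shFoxA1 in R1881. Counting peaks up to 500 bp apart as shared gave 7 gained with shFoxA1 in EtOH and 2 regions in both shFoxA1 lists only. Windows of 1 kb on each side of the start gave 13 promoters in shEV R1881. Requiring overlap of 50% of the shorter peak, assigning by RefSeq position and ranking among promoter-class peaks moved none. The cause of these shifts was not tested, beyond the fewer peaks that the shorter lists and the shorter distance leave. No paired analysis was possible because each group is 1 library.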
